A study of Mus musculus with 8 samples.

Results

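Leukotrienes and prostaglandins are lipid signals made from arachidonic acid, and 10 genes of these pathways were followed in macrophages grown from mouse bone marrow. They were the rows of the deposited count table with the symbols Ltb4r1, Alox5, Alox5ap, Lta4h, Ltc4s, Ptgs1, Ptgs2, Hpgds, Ptger4 and Pla2g7. All 10 were found among the 55376 genes of the table, and all 10 were among the 13721 genes with enough counts to be tested. The cells were measured by stranded mRNA sequencing in 8 libraries, 2 in each of 4 groups. The groups were DNMT3A-HET cells given IL-6 (HET IL-6), DNMT3A-HET cells without it (HET control), wild-type cells given IL-6 (WT IL-6) and wild-type cells without it (WT control). HET names a genotype with reduced DNMT3A, a DNA methyltransferase, and the series title places that reduction in blood cells. The allele, and whether it was limited to some cells, are not given in the labels. All marrow came from male mice, 3 per genotype, at 13 weeks of age, and all cultures contained M-CSF at 50 ng/mL, the growth factor that drives marrow cells to become macrophages. IL-6, an inflammatory cytokine, was present at 10 ng/mL for the last 2 days in the treated cultures, and RNA was taken from all cultures at day 8. How the mice were divided over the libraries, or pooled, is not given in the labels, and a p-value then measures library-to-library spread that may be technical.

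All 10 are protein-coding genes, and the deposited table gives their positions on mm10. The leukotriene genes lie apart, with Ltb4r1 at chr14:55765962-55768494, Alox5 at chr6:116410077-116461178, Alox5ap at chr5:149264767-149288153, Lta4h at chr10:93453411-93484875 and Ltc4s at chr11:50236461-50238616. Of the prostaglandin genes, the table puts Ptgs1 at chr2:36230426-36252272, Ptgs2 at chr1:150100031-150108227, Hpgds at chr6:65117293-65144908 and Ptger4 at chr15:5206661-5244187, and it puts Pla2g7 at chr17:43568098-43612201. Values are sums over all exons of a gene.

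As background, phospholipases free arachidonic acid from membranes, and a pair of enzyme routes then compete for it. The 5-lipoxygenase route (Alox5 with its helper protein Alox5ap) makes leukotriene A4, which Lta4h turns into leukotriene B4 and Ltc4s into leukotriene C4. Leukotriene B4 attracts leukocytes through the receptor encoded by Ltb4r1. The cyclooxygenases, encoded by Ptgs1 and Ptgs2, make prostaglandin H2, which Hpgds turns into prostaglandin D2 and other synthases into prostaglandin E2. Ptger4 encodes a prostaglandin E2 receptor that raises cyclic AMP, and Pla2g7 encodes a secreted hydrolase of platelet-activating factor and oxidised phospholipids. Macrophages are a known source of both kinds of lipid.

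Promoters are shown for the 4 members changed with IL-6 in both genotypes and whose RefSeq start is the start of the deposited gene model. Which start the changed transcripts used was not measured. Each line gives 250 bases before to 50 bases after the annotated start, 5′ to 3′ on the gene's strand, from RefSeq on build GRCm38.p6 (mm10). Capitals mark matches to the motifs named in the next paragraph. The windows are Ltb4r1 on the plus strand (chr14:55765712-55766011), Ptgs2 on the plus strand (chr1:150099781-150100080), Alox5 on the minus strand (chr6:116461129-116461428) and Ptger4 on the minus strand (chr15:5244138-5244437).
Ltb4r1: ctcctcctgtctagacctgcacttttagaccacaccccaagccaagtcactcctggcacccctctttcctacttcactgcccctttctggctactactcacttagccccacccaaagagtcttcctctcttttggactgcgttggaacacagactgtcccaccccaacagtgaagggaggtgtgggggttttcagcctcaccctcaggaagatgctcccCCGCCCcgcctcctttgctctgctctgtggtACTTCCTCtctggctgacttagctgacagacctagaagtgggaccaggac
Ptgs2: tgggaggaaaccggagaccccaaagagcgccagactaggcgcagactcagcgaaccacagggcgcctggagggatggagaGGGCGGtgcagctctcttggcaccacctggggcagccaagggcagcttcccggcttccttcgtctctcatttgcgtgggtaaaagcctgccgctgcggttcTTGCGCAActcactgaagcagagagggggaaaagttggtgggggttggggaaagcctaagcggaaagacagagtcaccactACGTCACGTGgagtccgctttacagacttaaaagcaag
Alox5: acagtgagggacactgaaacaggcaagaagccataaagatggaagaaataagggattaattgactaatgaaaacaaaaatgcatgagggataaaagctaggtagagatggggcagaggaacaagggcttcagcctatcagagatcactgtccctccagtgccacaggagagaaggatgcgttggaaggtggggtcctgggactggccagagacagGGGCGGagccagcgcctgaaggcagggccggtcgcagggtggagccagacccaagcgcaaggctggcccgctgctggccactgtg
Ptger4: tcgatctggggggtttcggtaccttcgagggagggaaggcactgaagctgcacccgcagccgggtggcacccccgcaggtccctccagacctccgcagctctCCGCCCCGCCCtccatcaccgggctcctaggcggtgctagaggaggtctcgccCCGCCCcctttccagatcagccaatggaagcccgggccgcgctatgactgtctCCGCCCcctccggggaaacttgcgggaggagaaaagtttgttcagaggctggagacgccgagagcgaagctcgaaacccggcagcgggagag

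The RefSeq table held promoters for 9 of the 10 members, with Alox5ap unmatched. The 4 windows differed in base composition, from 67.0% G or C with 25 CpG dinucleotides at Ptger4 to 55.7% with 7 at Alox5 and 56.3% with 3 at Ltb4r1, and Ptgs2 had 59.3% with 16. The mean over all 32851 promoters of the table was 53.8%. Matches to 8 motifs were searched on both strands, with the motifs chosen while the sequences were in view. The C/EBP motif TTGCGCAA was in 0.183% of all promoters and, among members, in Ptgs2, 69 bases before the start. Ptgs2 also held the E-box CACGTG (7.15% of promoters) and the cyclic AMP response element core TGACGT (7.51%), which overlap each other there. The Sp1 motif GGGCGG (35.7%) was in Alox5, Ltb4r1, Pla2g7, Ptger4 and Ptgs2. The PU.1 motif GAGGAAGT (3.2%) was in Hpgds, Ltb4r1 and Ptgs1, and in Ltb4r1 it began at the start site. The STAT motif TTCNNNGAA (8.3%), the kind of site bound by the factors that IL-6 activates, was found among members in Pla2g7. The RefSeq start of Pla2g7 lies 353 bases from the start of its deposited gene model. The AP-1 motif TGANTCA (7.81%) and the NF-kB consensus (8.46%) were in no member's window. A match is a description of the letters and was not tested as a site.

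Total counts per library ran from 18926641 to 50137897, with HET IL-6 number 2 the deepest and the next at 24881197. Levels are given as TMM-scaled CPM, that is, counts set against the size of each library, and 3 counts, taken as the floor of detection, equalled 0.0607 to 0.161 CPM. Dnmt3a itself did not separate the genotypes. It stood at 140.0 and 213 CPM in HET IL-6, 166 and 248 CPM in HET control, 174 and 183 CPM in WT IL-6 and 275 and 243 CPM in WT control, with HET over WT at -0.02 ± 0.25 on the log2 scale in IL-6 (edgeR adjusted p = 0.972) and -0.32 ± 0.25 in control (0.506). HET and WT are therefore used here as the labels of the libraries. The macrophage identity of the cells was checked on 12 marker genes, which summed to 16221 to 20764 CPM, and of these only Marco was under 1 CPM in every library. Neutrophil markers summed to 2.91 to 12.9 CPM with 10 of 12 under 1 CPM throughout. Markers of dendritic cells summed to 1.51 to 2.47 CPM, of B cells to 0.787 to 1.55 CPM, of T and NK cells to 0.268 to 4.30 CPM and of stromal cells to 1.34 to 11.7 CPM. In bulk RNA, fewer cells of a type and less RNA per cell cannot be told apart.

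With IL-6, the leukotriene B4 receptor gene Ltb4r1 rose 30.7-fold, the leukotriene enzymes Alox5 and Ltc4s fell, Ptgs2 rose and the prostaglandin E2 receptor gene Ptger4 fell. Averaged over genotype, 3 members were higher with IL-6 (Ltb4r1, Ptgs2 and Pla2g7) and 3 lower (Alox5, Ltc4s and Ptger4) at an edgeR quasi-likelihood adjusted p under 0.05, while 23.6% of all tested genes passed (10.8% higher and 12.8% lower). In HET cells 3 members were higher and 4 lower, against 18.3% of all genes (8.87% higher and 9.41% lower). In WT cells 2 were higher and 3 lower, against 18.3% of all genes (7.91% higher and 10.4% lower). The members' median log2 change was -0.06 in HET and 0.15 in WT cells, where the medians of all genes were 0.01 and -0.01. The members were chosen with earlier results known, so these counts describe the set.

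**Figure D1:**
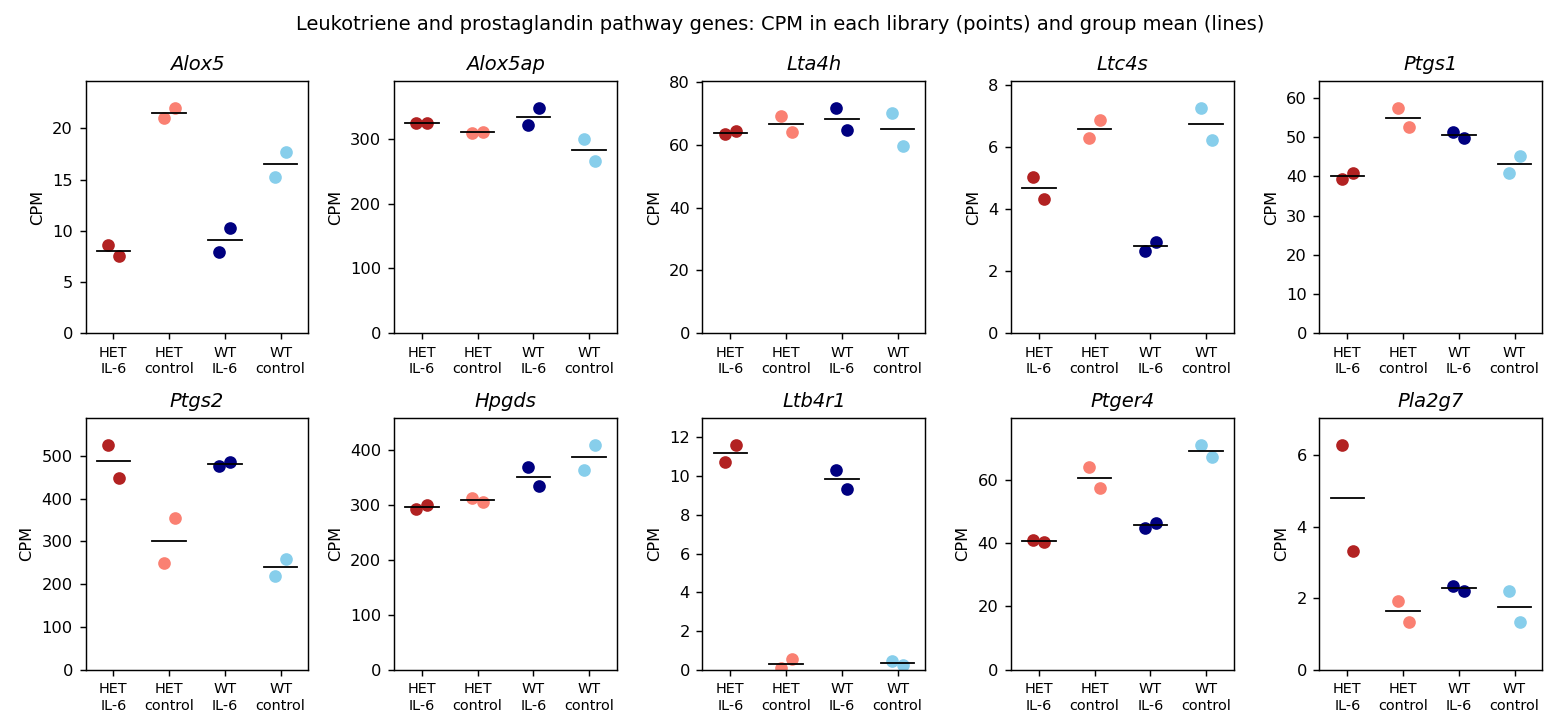
Level of each of the 10 genes in CPM (vertical axes, each from 0) in the 2 libraries of each group, as points, with the group mean as a line. The Ltb4r1 points sit between 9.32 and 11.6 CPM in both IL-6 groups and under 1 CPM in both control groups, and the Alox5 points are lower in both IL-6 groups than in either control group.

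Ltb4r1 encodes the high-affinity receptor for leukotriene B4, and it had the largest log2 change of the 10 genes. It had 10.7 and 11.6 CPM in HET IL-6, against 0.0874 and 0.543 CPM in HET control, and 10.3 and 9.32 CPM in WT IL-6, against 0.438 and 0.265 CPM in WT control. All 4 IL-6 libraries were far above all 4 control libraries, and the control libraries were close to the detection floor, with counts of 2 and 13 in HET control and 11 and 6 in WT control. On the log2 scale the change was 5.11 ± 0.32 in HET cells (SE, edgeR adjusted p = 8.04e-08) and 4.77 ± 0.32 in WT cells (1.92e-07). Averaged over genotype it was 4.94 ± 0.23, a 30.7-fold difference (1.44e-09). The size in HET cells depended on the low control counts: it was 6.93 without HET control number 2, the averaged change then being 5.85, and 4.35 without HET control number 1. The call held under all 16 alternatives tried. The SE was worked back from the F statistic of the test, so at such low control counts it is a rough measure. The neighbouring low-affinity receptor gene Ltb4r2 had 1 to 7 counts per library and was not tested.

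Monocytes and neutrophils also use this receptor, so their markers are given beside it. The 7 monocyte markers summed to 50.0 to 56.2 CPM in HET IL-6, against 30.7 to 39.8 CPM in HET control, and to 71.8 to 90.9 CPM in WT IL-6, against 40.3 to 48.7 CPM in WT control. Without the chemokine receptor Ccr2, which led the list, the sum was 13.1 to 15.0 CPM in HET IL-6, against 6.98 to 7.43 CPM in HET control, and 18.6 to 21.2 CPM in WT IL-6, against 4.94 to 6.61 CPM in WT control, and so also higher with IL-6, while Ly6c2 and Hp were under 1 CPM in every library. The neutrophil sum was 6.29 to 7.50 CPM in HET IL-6, against 5.23 to 6.43 CPM in HET control, and 11.7 to 12.9 CPM in WT IL-6, against 2.91 to 3.97 CPM in WT control. Mmp8 led it, and without Mmp8 the sum was lower with IL-6 in HET cells and higher in WT cells. It was then 1.64 to 1.99 CPM in HET IL-6, against 2.93 to 3.23 CPM in HET control. In WT cells it was 2.95 to 2.98 CPM with IL-6, against 1.37 to 1.39 CPM in control. The eosinophil sum was 11.9 to 20.3 CPM in HET IL-6, against 4.85 to 6.10 CPM in HET control, and 27.0 to 41.8 CPM in WT IL-6, against 5.10 to 7.50 CPM in WT control, and without its leading gene Ccr3 it was 0.214 to 0.617 CPM over the 8 libraries. The part of these cells in the Ltb4r1 result was not tested.

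Alox5, the 5-lipoxygenase that starts leukotriene synthesis, moved the opposite way. It had 8.62 and 7.49 CPM in HET IL-6, against 21.0 and 22.0 CPM in HET control, and 7.89 and 10.2 CPM in WT IL-6, against 15.3 and 17.7 CPM in WT control. Every IL-6 library was below every control library. On the log2 scale this was a change of -1.43 ± 0.14 in HET cells (edgeR adjusted p = 4.63e-06) and -0.87 ± 0.14 in WT cells (5.57e-04). Averaged over genotype the level was 2.22-fold lower with IL-6 (log2 -1.15 ± 0.10, adjusted p = 7.77e-07), and each of these calls held under every alternative tried.

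The 2 genes around Alox5 in the route to leukotriene B4 were not called. Alox5ap, which presents arachidonic acid to Alox5, had 325 and 325 CPM in HET IL-6, against 310.3 and 312 CPM in HET control, and 322 and 349 CPM in WT IL-6, against 301 and 266 CPM in WT control. Its log2 change was 0.06 ± 0.08 in HET (edgeR adjusted p = 0.673) and 0.24 ± 0.08 in WT cells (0.0569). Lta4h, which makes leukotriene B4, had 63.4 and 64.5 CPM in HET IL-6, against 69.3 and 64.1 CPM in HET control, and 71.8 and 64.9 CPM in WT IL-6, against 70.2 and 59.7 CPM in WT control. The Lta4h libraries of the groups overlapped, and its averaged log2 change was 0.01 ± 0.07 (0.957).

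Ltc4s makes leukotriene C4, the parent of the cysteinyl leukotrienes. It had 5.01 and 4.31 CPM in HET IL-6, against 6.30 and 6.86 CPM in HET control, and 2.64 and 2.95 CPM in WT IL-6, against 7.24 and 6.22 CPM in WT control. The IL-6 libraries were the lower ones in both genotypes, with WT IL-6 lowest of the 4 groups. The log2 change was -0.51 ± 0.16 in HET cells (edgeR adjusted p = 0.0394), -1.27 ± 0.18 in WT cells (1.70e-04) and -0.89 ± 0.12 averaged (7.37e-05). The call in HET cells was lost when any of the 4 HET libraries was left out, with log2 changes of -0.60 and -0.39 without the first and the second HET IL-6 library and -0.57 and -0.45 without the first and the second HET control library. It was also lost with DESeq2 and without the low-count filter, and in all under 9 of 16 alternatives. A predicted gene model on the opposite strand, Gm26542, overlaps 26.4% of the exon bases of Ltc4s and had 0.248 to 1.01 CPM, so the count of Ltc4s is uncertain if strand was not used. Mast cells are known for Ltc4s, and the 12 mast cell and basophil markers summed to 4.23 to 4.39 CPM in HET IL-6, against 4.77 to 5.89 CPM in HET control, and to 2.25 to 2.69 CPM in WT IL-6, against 6.75 to 10.5 CPM in WT control. Kit led that list, and without it the sum was also lower with IL-6 in both genotypes. It was then 1.21 to 1.49 CPM in HET IL-6, against 2.51 to 2.71 CPM in HET control. In WT cells it was 0.696 to 1.36 CPM with IL-6, against 2.12 to 2.79 CPM in control. Hdc made up most of this sum, at 0.994 and 0.830 CPM in HET IL-6, against 2.49 and 2.17 CPM in HET control. In WT cells Hdc had 0.868 and 0.536 CPM with IL-6, against 2.03 and 1.54 CPM in control. Cpa3 overlapped between the HET groups, at 0.456 and 0.263 CPM with IL-6, against 0.219 and 0.293 CPM in control. In WT cells Cpa3 was lower with IL-6, at 0.372 and 0.0536 CPM, against 0.637 and 0.441 CPM. Of the 12 markers, 6 were at 0 counts in every library, including the mast cell proteases Cma1 and Tpsb2. The part of such cells in the Ltc4s result was not tested.

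Ptgs2, the inducible cyclooxygenase, rose in both genotypes. It had 526 and 448 CPM in HET IL-6, against 249 and 355 CPM in HET control, and 477 and 486 CPM in WT IL-6, against 219.7 and 260.0 CPM in WT control. All IL-6 libraries were above all control libraries, with the HET control pair the most spread. The log2 rise was 0.69 ± 0.14 in HET cells (edgeR adjusted p = 0.00467), 1.01 ± 0.14 in WT cells (3.36e-04) and 0.85 ± 0.10 averaged, or 1.80-fold (4.99e-05). In HET cells it was 0.35, and not called, when both HET number 1 libraries were left out, and the call was also lost when the 2 HET groups were fitted alone.

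Ptgs1, the constitutive cyclooxygenase, was the 1 member whose IL-6 response differed between the genotypes. It had 39.3 and 40.9 CPM in HET IL-6, against 57.5 and 52.6 CPM in HET control, and 51.4 and 49.9 CPM in WT IL-6, against 40.8 and 45.3 CPM in WT control. The HET IL-6 libraries were below the HET control libraries, and the WT IL-6 libraries above the WT control libraries. The log2 change was -0.46 ± 0.09 in HET cells (edgeR adjusted p = 0.00210) and 0.23 ± 0.09 in WT cells (0.0871, not called). The HET call was lost without both number 1 libraries (-0.35) and without both number 2 libraries (-0.55). Platelets are known for Ptgs1, and the 8 megakaryocyte and platelet markers summed to 11.0 to 20.3 CPM in HET IL-6, against 11.2 to 11.7 CPM in HET control, and to 12.6 to 15.0 CPM in WT IL-6, against 10.9 to 23.8 CPM in WT control. The 6 endothelial markers, led by Vwf, summed to 139 to 139.6 CPM in HET IL-6, against 87.6 to 97.8 CPM in HET control. In WT cells they summed to 98.9 to 100.3 CPM with IL-6, against 114 to 142 CPM in control. Without Vwf the sum was higher with IL-6 in both genotypes. It was 55.1 to 55.9 CPM in HET IL-6, against 27.8 to 30.3 CPM in HET control. In WT cells it was 52.2 to 55.9 CPM with IL-6, against 32.3 to 34.8 CPM in control. Kdr made up most of this sum, at 52.3 and 53.1 CPM in HET IL-6, against 25.2 and 27.2 CPM in HET control. In WT cells Kdr had 52.9 and 48.6 CPM with IL-6, against 33.1 and 29.6 CPM in control. Cdh5 was lower with IL-6 in HET cells and higher in WT cells. Pecam1 was higher with IL-6 in HET cells and overlapped in WT cells. Tek was under 1 CPM in every library, and Emcn had 0 counts. The part of these cell types in the Ptgs1 result was not tested.

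Hpgds, the haematopoietic prostaglandin D synthase, did not pass the test for IL-6. It had 292 and 299 CPM in HET IL-6, against 312 and 305 CPM in HET control, and 369 and 334 CPM in WT IL-6, against 364 and 409 CPM in WT control. Its log2 change was -0.06 ± 0.08 in HET (edgeR adjusted p = 0.682) and -0.14 ± 0.08 in WT cells (0.300). The gene of the other prostaglandin D synthase, Ptgds, had 0 counts in all 8 libraries, which allows up to 0.0607 to 0.161 CPM.

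Ptger4, the EP4 receptor through which prostaglandin E2 raises cyclic AMP, fell in both genotypes. It had 40.9 and 40.5 CPM in HET IL-6, against 63.9 and 57.4 CPM in HET control, and 44.9 and 46.5 CPM in WT IL-6, against 71.1 and 67.1 CPM in WT control. All 4 IL-6 libraries were below all 4 control libraries. The log2 change was -0.58 ± 0.08 in HET (edgeR adjusted p = 2.66e-04) and -0.60 ± 0.09 in WT cells (2.00e-04), and -0.59 ± 0.06 averaged (5.27e-06). Without both HET number 1 libraries the HET change was -0.49 and was not called. Ttc33 overlaps some of the 16.5% of Ptger4 exon bases that other gene models share, and it had 22.4 to 31.0 CPM, so the level of Ptger4 is uncertain if strand was not used.

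Pla2g7, the hydrolase of platelet-activating factor, was the lowest member per kilobase of exon in both IL-6 groups. It had 6.30 and 3.32 CPM in HET IL-6, against 1.92 and 1.34 CPM in HET control, and 2.36 and 2.20 CPM in WT IL-6, against 2.19 and 1.32 CPM in WT control. The HET IL-6 libraries were the highest, with number 1 well above number 2, while the WT IL-6 and WT control values nearly met. In log2 terms Pla2g7 changed by 1.52 ± 0.32 in HET (edgeR adjusted p = 0.00429), 0.37 ± 0.35 in WT cells (0.533) and 0.94 ± 0.24 averaged (0.0103). Leaving out HET IL-6 number 1 lowered the HET change to 1.03, leaving out HET control number 2 lowered it to 1.28, and neither value was called. Gene models on the opposite strand also overlap 13.3% of the exon bases of Alox5ap, 11.0% of those of Pla2g7 and 3.81% of those of Ptgs1, and these models had at most 1.49 CPM in any library.

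**Figure D2:**
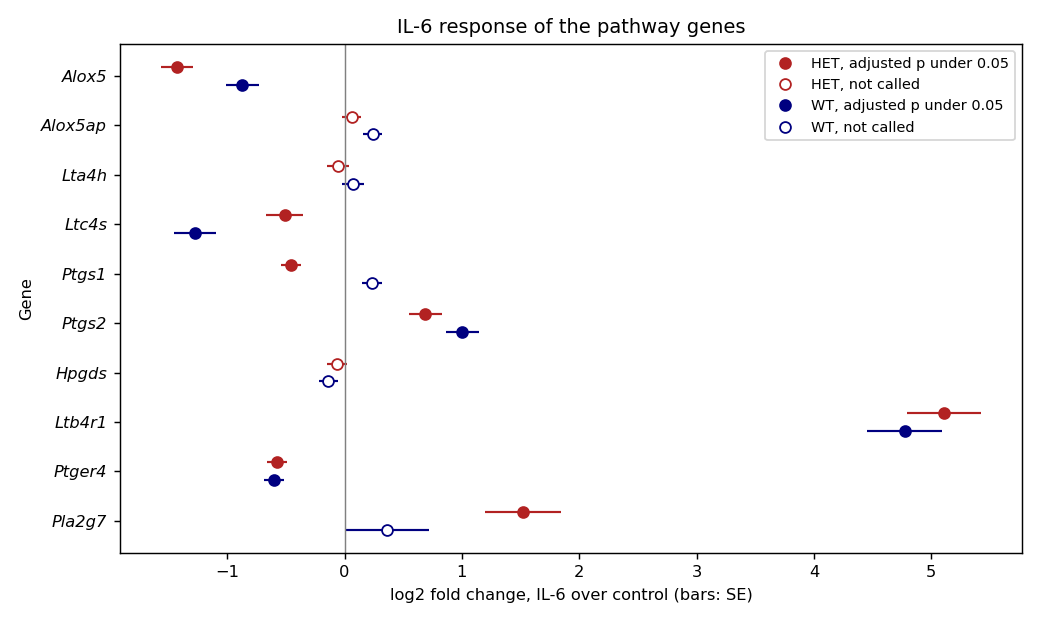
Log2 change with IL-6 over control (horizontal axis) for each of the 10 genes (vertical axis), with the standard error as bars, separately for HET and WT cells, with filled points past the edgeR threshold and open points not. Ltb4r1 lies near 5 in both genotypes, Alox5, Ltc4s and Ptger4 lie below 0 in both, and Ptgs1 lies at -0.46 in HET and 0.23 in WT cells.

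Between genes, levels were compared per kilobase of exon, since longer transcripts collect more reads. Alox5ap was the highest member at a mean of 221 CPM per kilobase over the 8 libraries (range 188 to 245). Ptgs2 followed at 82.5 (48.0 to 115) and Hpgds at 52.2 (45.5 to 63.7), and the ranges of that pair overlapped. Ptgs1 at 12.2 (10.1 to 14.8) and Lta4h at 10.8 (9.79 to 11.8) also overlapped, as did Ptger4 at 8.13 (6.09 to 10.7) with both. Ltc4s stood at 5.12 (2.61 to 7.14), Ltb4r1 at 3.89 (0.0627 to 8.33), Alox5 at 3.35 (1.82 to 5.36) and Pla2g7 at 0.901 (0.455 to 2.17), and each of these ranges overlapped that of its neighbours in the order. Ltb4r1 ranked 6 of 10 in both IL-6 groups and 10 of 10 in both control groups.

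The ratio of one member to another within a library does not depend on depth. Per kilobase, Ptgs2 stood over Ptgs1 by 11.4 and 9.30 times in HET IL-6, against 3.68 and 5.72 times in HET control, and by 7.87 and 8.27 times in WT IL-6, against 4.56 and 4.87 times in WT control. Alox5ap stood over its partner Alox5 by 109 and 125 times in HET IL-6, against 42.8 and 41.0 times in HET control, and by 118 and 98.5 times in WT IL-6, against 56.9 and 43.6 times in WT control. Lta4h stood over Ltc4s, the enzyme that competes with it for leukotriene A4, by 2.10 and 2.49 times in HET IL-6, against 1.83 and 1.55 times in HET control, and by 4.51 and 3.66 times in WT IL-6, against 1.61 and 1.60 times in WT control. All 3 ratios were higher in every IL-6 library than in every control library of the same genotype. They are descriptions of transcript levels and were not tested apart from the genes themselves.

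The next comparisons set HET against WT cells. In IL-6, Ltc4s and Pla2g7 were higher in HET than in WT cells and Ptgs1 and Hpgds lower, which is 2 higher and 2 lower of 10, against 22.0% of all tested genes (13.2% higher and 8.80% lower). In control, Ptgs1 was higher in HET cells and Hpgds lower, against 4.85% of all genes (2.81% higher and 2.05% lower). Averaged over treatment 0 members were higher and 1, Hpgds, was lower, against 19.9% of all genes (11.9% higher and 7.99% lower). For the HET minus WT difference of response 0 members were higher and 1, Ptgs1, was lower, against 8.12% of all genes (4.52% higher and 3.60% lower).

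Hpgds was the 1 member called lower in HET cells under both treatments. It averaged 296 ± 4.70 CPM in HET IL-6 and 351 ± 25.0 CPM in WT IL-6, and 309 ± 4.84 CPM in HET control and 386 ± 32.3 CPM in WT control (SD, n = 2 each). The HET libraries were below the WT libraries within each treatment, without overlap, which also held for Ptger4, a gene not called between the genotypes. The log2 difference was -0.29 ± 0.06 averaged over treatment (edgeR adjusted p = 0.00612), -0.25 ± 0.08 in IL-6 (0.0483) and -0.32 ± 0.08 in control (0.0437). The averaged call held without any single library, and was lost without both HET number 1 or both HET number 2 libraries, at -0.28 and -0.29. The IL-6 call was lost without HET IL-6 number 1 or number 2 (-0.24 and -0.28), HET control number 1 or number 2 (-0.25 and -0.25) or WT IL-6 number 1 (-0.17), and in all under 10 of 16 alternatives, among them scaling to total counts and no low-count filter. The control call was lost without HET control number 1 or number 2 (-0.34 and -0.31), HET IL-6 number 1 or number 2 (-0.32 and -0.32) or WT control number 2 (-0.24), and in all under 9 of 16 alternatives.

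Ptgs1 was lower in HET than in WT cells with IL-6 (log2 -0.34 ± 0.09, edgeR adjusted p = 0.0163) and higher in control (0.35 ± 0.09, 0.0367). The difference of its IL-6 response, HET minus WT, was -0.69 ± 0.12 (0.00467). That difference held without any single library and was -0.59, no longer called, without both HET number 1 libraries. The call in IL-6 was lost without HET IL-6 number 1 (-0.32) or number 2 (-0.38) or WT IL-6 number 1 (-0.31). The call in control was lost without HET control number 1 (0.29) or number 2 (0.42), HET IL-6 number 1 or number 2 (0.36 each) or WT control number 1 (0.28).

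Ltc4s was higher in HET than in WT cells with IL-6 (log2 0.73 ± 0.18, edgeR adjusted p = 0.0125), and the call was lost without HET IL-6 number 1 (0.62) or WT IL-6 number 1 (0.65). The difference of its response was 0.76 ± 0.24 and did not pass (0.0693). Pla2g7 was higher in HET than in WT cells with IL-6 (1.03 ± 0.31, 0.0311), with the call lost without HET IL-6 number 1 (0.53), WT IL-6 number 1 (1.09) or WT IL-6 number 2 (0.98), and the difference of its response was 1.15 ± 0.48 (0.173).

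The members with the clearest IL-6 changes showed no called difference of response. That difference, HET minus WT, was 0.33 ± 0.62 for Ltb4r1 (edgeR adjusted p = 0.807), -0.56 ± 0.20 for Alox5 (0.103), -0.32 ± 0.20 for Ptgs2 (0.393) and 0.02 ± 0.12 for Ptger4 (0.947). At the low control counts of Ltb4r1 the SE was larger than the difference itself, and what size of difference could be detected was not tested. Ltb4r1 with IL-6 was 11.2 ± 0.630 CPM in HET and 9.82 ± 0.716 CPM in WT cells (SD, n = 2 each, log2 0.19 ± 0.19, adjusted p = 0.516).

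**Figure D3:**
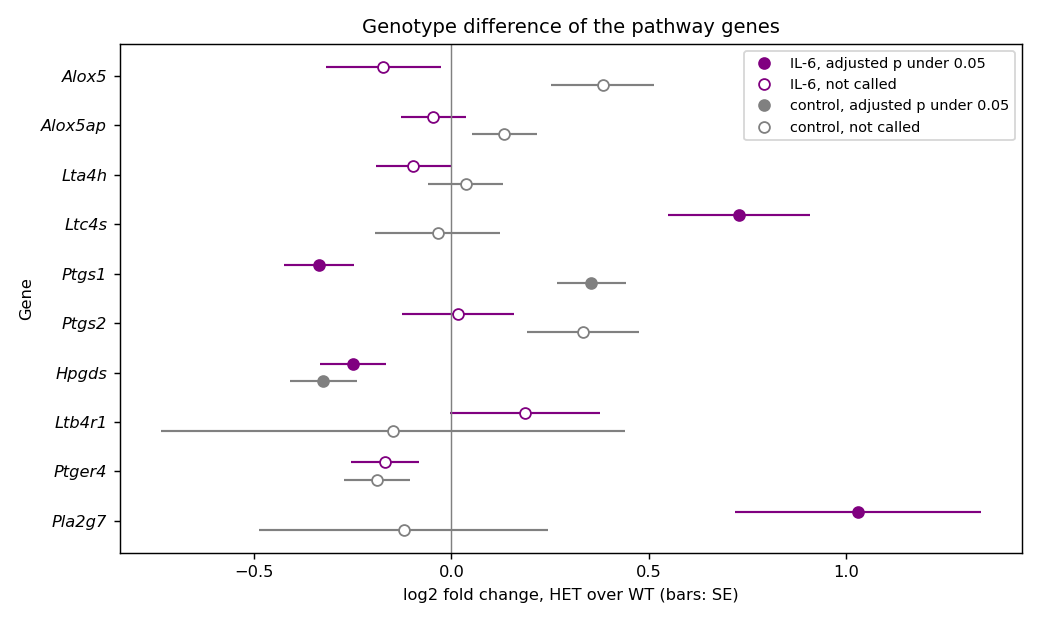
Log2 difference of HET over WT (horizontal axis) for each of the 10 genes (vertical axis), with the standard error as bars, separately for IL-6 and control cultures, with filled points past the edgeR threshold and open points not. Hpgds lies below 0 under both treatments, and Ptgs1 lies at -0.34 in IL-6 and 0.35 in control.

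Around the 10 members, 69 other genes of arachidonic acid release, leukotriene and prostanoid synthesis, breakdown, receptors and platelet-activating factor were listed, and 51 had enough counts to be tested. Averaged over genotype, 14 of the 51 were higher with IL-6 and 9 lower, and 28 did not pass, so that 45.1% of the list was called against 23.6% of all genes. In HET cells 10 were higher and 8 lower, which is 35.3% against 18.3% of all genes. In WT cells 9 were higher and 6 lower, which is 29.4% against 18.3%. Their median log2 change averaged over genotype was 0.00, beside -0.01 over all genes. Of the 9 phospholipase and release genes tested, 5 were higher and 2 lower. Of the 7 genes of breakdown and transport, 0 were higher and 3 lower, at the same averaged comparison. These are small counts and were not tested as lists.

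Hpgd, which inactivates prostaglandins by oxidation, had the lowest log2 change among the listed genes that passed the test. It had 4.35 and 5.02 CPM in HET IL-6, against 30.5 and 22.5 CPM in HET control, and 8.88 and 6.32 CPM in WT IL-6, against 20.6 and 23.1 CPM in WT control. The IL-6 libraries were far below the control libraries in both genotypes. Hpgd changed by -2.48 ± 0.17 on the log2 scale in HET (edgeR adjusted p = 2.56e-07) and -1.51 ± 0.17 in WT cells (2.94e-05). The difference of the response was -0.97 ± 0.25 (0.0278), and that call was lost without HET IL-6 number 1 (-0.90) or number 2 (-1.11), HET control number 1 (-0.73), WT IL-6 number 1 (-0.69), WT control number 1 (-0.89) or both HET number 1 libraries (-0.64).

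Ptger2, the EP2 receptor that shares its ligand and its cyclic AMP signal with Ptger4, rose in HET cells. It had 5.51 and 5.38 CPM in HET IL-6, against 1.57 and 1.71 CPM in HET control, and 1.82 and 2.57 CPM in WT IL-6, against 2.23 and 2.20 CPM in WT control. The HET IL-6 libraries stood above the other 6 libraries, and the WT groups overlapped. The log2 change was 1.72 ± 0.21 in HET (edgeR adjusted p = 5.75e-05) and -0.03 ± 0.23 in WT cells (0.945). The difference of the response was 1.76 ± 0.32 (0.00460), a call that was lost without both HET number 1 libraries at 1.68. Per kilobase, Ptger4 stood over Ptger2 by 5.80 and 5.88 times in HET IL-6, against 31.7 and 26.2 times in HET control, and by 19.3 and 14.1 times in WT IL-6, against 24.9 and 23.8 times in WT control.

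Of the other listed genes, cytosolic phospholipase A2 (Pla2g4a), which frees arachidonic acid, rose with IL-6. It had 140.1 and 134 CPM in HET IL-6, against 100.2 and 99.4 CPM in HET control, and 175 and 155 CPM in WT IL-6, against 93.5 and 112 CPM in WT control (log2 0.57 ± 0.07 averaged). Cysltr1, a receptor for cysteinyl leukotrienes, had 68.8 and 76.9 CPM in HET IL-6, against 45.3 and 47.6 CPM in HET control, and 97.5 and 86.9 CPM in WT IL-6, against 47.6 and 60.1 CPM in WT control (log2 0.71 ± 0.08 averaged). Mgst3, of the same membrane protein family as Alox5ap and Ltc4s, had 36.4 and 38.7 CPM in HET IL-6, against 68.5 and 66.3 CPM in HET control, and 36.4 and 37.1 CPM in WT IL-6, against 61.4 and 49.3 CPM in WT control (log2 -0.72 ± 0.07 averaged). In each of these 3 genes the IL-6 libraries were on one side of the control libraries in both genotypes, and each averaged change passed the edgeR test.

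**Figure D4:**
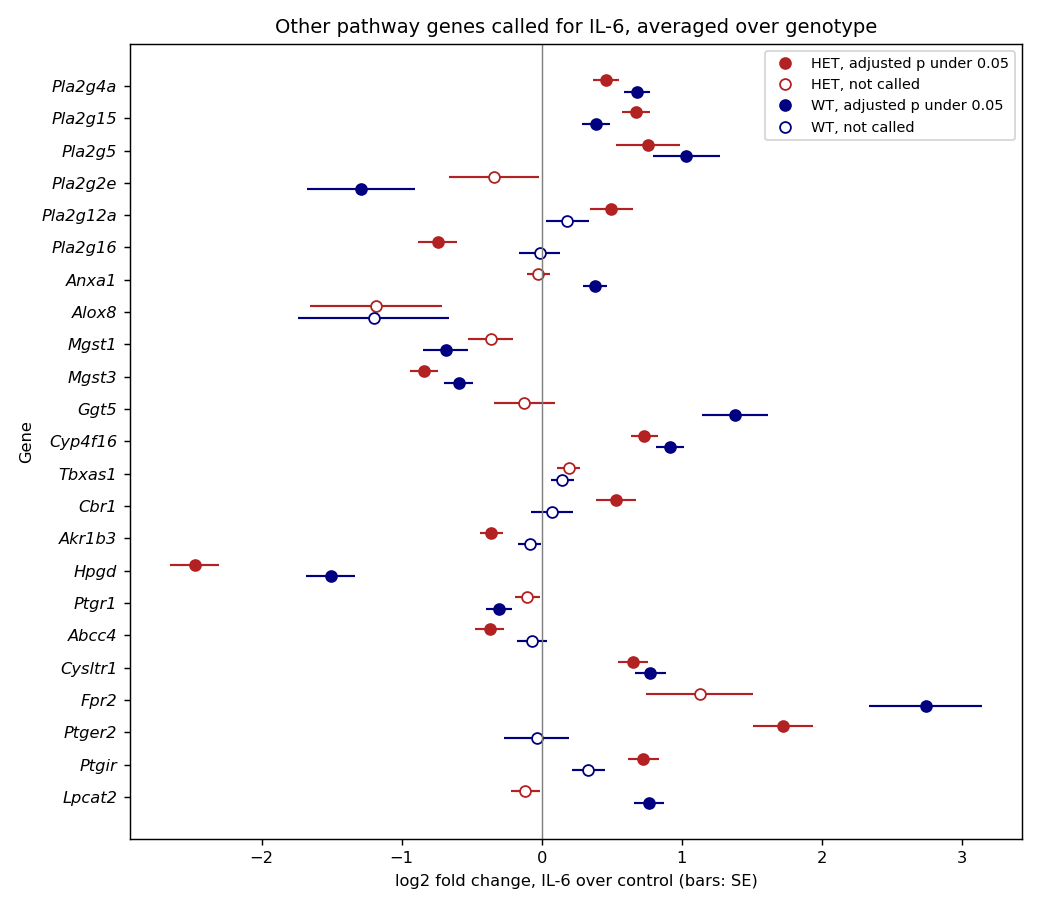
Log2 change with IL-6 over control (horizontal axis) for the other listed genes called averaged over genotype (vertical axis), with the standard error as bars, in HET and in WT cells, filled where past the threshold. Hpgd lies lowest at -2.48 in HET and -1.51 in WT cells, and Ptger2 lies at 1.72 in HET and -0.03 in WT cells.

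Between the genotypes, 7 of the 51 listed genes were higher in HET cells and 8 lower with IL-6, which is 29.4% against 22.0% of all genes. In control 4 were higher and 0 lower (7.84% against 4.85%), and averaged over treatment 3 were higher and 5 lower (15.7% against 19.9%). Ptgir, the prostacyclin receptor, had 42.1 and 33.8 CPM in HET IL-6 and 22.8 and 23.0 CPM in WT IL-6 (log2 0.72 ± 0.11). The difference of the IL-6 response was called for 2 higher and 6 lower (15.7% against 8.12% of all genes). Of these, Lpcat2, an enzyme of platelet-activating factor synthesis, had 50.0 and 51.8 CPM in HET IL-6, against 58.9 and 51.5 CPM in HET control, and 70.1 and 72.0 CPM in WT IL-6, against 37.1 and 46.4 CPM in WT control. Its WT IL-6 libraries were the highest of the 8, and its difference of response was -0.88 ± 0.15 (edgeR adjusted p = 0.00301), lost without both HET number 1 libraries at -0.75.

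The genes whose log2 levels ran most like a member's over the 8 libraries were sought among 9292 genes with a mean of at least 5 CPM, by Pearson's r. Because the libraries share 4 groups, a high r can come from the group means, and no p is given. For Ltb4r1 they were Igf2bp2 (r = 0.992), Cd5l (0.991) and Ly6a (0.989). For Alox5 they were Gypc (0.984), Apol8 (0.980) and Adgre5 (0.979). For Ltc4s they were H2-T23 (0.996), Oas1g (0.988) and Tor3a (0.988), and for Ptgs1 they were led by Fkbp5 (0.993). Ptger4 was closest to Abcg3 (0.988) and Ptgs2 to Agk (0.973). Lta4h, which changed least, had the loosest match, with Uros (0.887).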

How the data were processed

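The values analysed were raw counts of reads per gene, deposited by the authors as 1 table of 55376 genes and 8 libraries, with every column matched to its library by name and 0 sample columns left over. Among tools, the submitters' processing notes list STAR 2.7.9a, featureCounts 1.6.2, fastp 0.12.4 and SAMtools 1.9, with mm10 as the genome. For the counting, neither annotation release nor strand setting is given in the sources here. A spreadsheet had turned 26 symbols into dates, none of them a member.

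After filterByExpr (minimum count 10), 13721 genes were scaled by TMM and tested 2-sided over all 8 libraries with edgeR 4.0.16 (R 4.3.3), as a quasi-likelihood test with 1 mean per group and 4 residual degrees of freedom. P-values were adjusted over all tested genes by the Benjamini-Hochberg method, and a gene was called under 0.05. Comparisons that share control libraries are not independent. CPM are given per library, and fold changes on the log2 scale with a standard error. That error was worked back from the test, as the absolute log2 change divided by the square root of the F statistic. On simulated counts the averaged IL-6 comparison recovered 87.9% of genes changed by 1 on the log2 scale and 100% of those changed by 2. It made 13 false calls among 13721 genes, and the other comparisons were not simulated.

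The members, gene lists and motifs were chosen with earlier results of these data known. Named genes were the members, Dnmt3a, close relatives of members, up to 6 called genes per comparison with the smallest p from the list of other pathway genes, and the 3 genes most like each member. Marker lists covered 11 cell types: macrophages, monocytes, neutrophils, eosinophils, mast cells and basophils, megakaryocytes, B cells, dendritic cells, stromal cells, endothelial cells and T and NK cells. Alternatives were DESeq2 1.42.0, RLE scaling, scaling to total counts, no low-count filter, a replicate block, fits of only the groups compared, and each library left out. Libraries of a group differed by more than sampling noise, so none was counted as a repeat.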

Additional observations from a re-analysis of the deposited data

Results flagged for a closer look

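The IL-6 response of Ptgs1, the constitutive cyclooxygenase, differed between the genotypes by a test of the difference itself. On the log2 scale the difference, HET minus WT, was -0.69 ± 0.12 (edgeR adjusted p = 0.00467), with both HET IL-6 libraries below both HET control libraries and both WT IL-6 libraries above both WT control libraries. It was -0.59, and no longer called, without both HET number 1 libraries.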

How the results depend on the processing

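The IL-6 calls of Ltb4r1 and Alox5 held in both genotypes under every alternative. Each group had 2 libraries, which limits precision, and Ltb4r1 in control cells was near the detection floor. Leaving out each library in turn, genes called numbered 1203 to 3061 for IL-6 in HET, 1577 to 3073 in WT, 879 to 4000 for HET over WT in IL-6 (0 to 4 members), 33 to 1304 in control (0 to 2), 940 to 4500 averaged (1 to 2) and 304 to 2123 for the difference of response (1 to 3). On the log2 scale the values that changed sign were Lta4h in WT (-0.039 to 0.20) and averaged (-0.049 to 0.069), Ptger2 in WT (-0.28 to 0.21), Dnmt3a HET over WT in IL-6 (-0.37 to 0.24), Ltb4r1 HET over WT in control (-1.97 to 0.61) and the difference of response of Ltb4r1 (-0.42 to 2.15), Hpgds (-0.010 to 0.16) and Ptger4 (-0.054 to 0.10). None of these was called. RLE scaling called 2 members for HET over WT averaged. Scaling to total counts gave Lta4h -0.033 averaged. Without the low-count filter 1078 genes and 4 members were called for HET over WT in control, 2 members averaged and 2 for the difference of response, and Dnmt3a in IL-6 was 0.0075. Fitting only the groups compared called 3945 genes for IL-6 in HET and 437 genes and 0 members for HET over WT in control. The cause was not tested.

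Same-numbered libraries deviated together in HET (r = 0.152) and not in WT (r = -0.113), so the numbers were not taken to pair the libraries. With a replicate block, 339 genes and 0 members were called for HET over WT in control and 506 genes for the difference of response. Among the calls given in the text, those lost with it were Ltc4s for IL-6 in HET, Hpgds for HET over WT in IL-6, Hpgds, Ptgs1 and Pla2g6 for HET over WT in control, and the difference of response of Hpgd. With the WT numbers crossed, chosen after seeing the data, 4435 genes were called for IL-6 in HET, 4443 in WT, 5144 averaged and 3121 (5 members) for the difference.

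Also chosen after seeing the data were fits without 2 HET libraries, since Dnmt3a differed between HET numbers. Without both number 2 libraries, genes called were 835 for IL-6 in HET, 1715 averaged, 862 for HET over WT in IL-6 (2 members), 203 in control (0), 435 averaged (0) and 428 for the difference. Lta4h averaged was then -0.027, and the difference was 0.073 for Ptgs2 and -0.046 for Ptger4. Without both number 1 libraries they were 697 for IL-6 in HET (3 members), 1724 averaged, 1042 for HET over WT in IL-6 (0), 79 in control (0), 720 averaged (0) and 188 for the difference (0). Lta4h in HET was then 0.022, Dnmt3a in IL-6 0.26, Ltb4r1 in control 0.61 and its difference of response -0.36.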

Other observations

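Pla2g6, a calcium-independent phospholipase, was higher in HET than in WT cells averaged over treatment. It had 8.78 and 9.82 CPM in HET IL-6, against 5.70 and 6.37 CPM in WT IL-6, and 7.52 and 7.94 CPM in HET control, against 5.29 and 5.20 CPM in WT control. The averaged log2 difference was 0.60 ± 0.10 (edgeR adjusted p = 0.00172), and it was 0.53 and not called without both HET number 2 libraries. Within a treatment the call in control was lost under 11 of 16 alternatives and that in IL-6 under 3. Ptges, the inducible prostaglandin E synthase, did not pass the test for IL-6, with 1.78 and 1.78 CPM in HET IL-6, against 1.53 and 1.42 CPM in HET control, and 1.36 and 2.04 CPM in WT IL-6, against 0.995 and 0.882 CPM in WT control. Its averaged log2 change was 0.55 ± 0.20 (adjusted p = 0.0659).

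Ggt5, which trims leukotriene C4 to leukotriene D4, had 2.82 and 2.49 CPM in HET IL-6, against 3.23 and 2.51 CPM in HET control, and 4.22 and 3.64 CPM in WT IL-6, against 1.35 and 1.68 CPM in WT control. The HET IL-6 and control libraries overlapped, and the WT IL-6 libraries were above the WT control libraries. The difference of response, HET minus WT, was -1.51 ± 0.32 (edgeR adjusted p = 0.0120), and it was no longer called without HET IL-6 number 2 (-1.43), HET control number 1 (-1.31) or WT IL-6 number 1 (-1.39).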
